A study of Mus musculus with 6 samples.

Results

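The 8 Bpif genes Bpifa1, Bpifb2, Bpifb3, Bpifb4, Bpifb5, Bpifb6, Bpifb9a and Bpifb9b were followed in RNA precipitated with an antibody against the phosphorylated form of S6, a ribosomal protein, from vomeronasal tissue of male CD-1 mice. They were taken by name, 8 of the 38561 genes in the deposited table of read counts, and all 8 had a row. The vomeronasal organ is the pheromone-sensing epithelium of the nose, and CD-1 is an outbred stock. Of the 6 libraries, 3 followed exposure to pups and 3 a control exposure that the labels do not describe. The labels give no age, genotype or pooling of animals, and leave unsaid whether each library came from its own animal, so the p-values reflect the spread among these 6 libraries alone, part of which may be technical.

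BPI fold proteins share a fold with a hydrophobic pocket for lipids, and most are secreted. They belong with the bacterial lipopolysaccharide binders Bpi and Lbp and the phospholipid carrier Pltp in one superfamily. In the airways and nose several are made by surface epithelium and by mucosal glands and released into mucus.

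Bpifa1, known as SPLUNC1, a surface-active antimicrobial protein of airway mucus, was the most abundant of the 8, and Bpifb2 had no count in any library. Of the 5 members that entered the test between exposures 0 passed, and 0 of all 15498 genes tested did. For 6 of the 7 genes with counts the groups overlapped and the first control library held the highest level. Over all genes tested the groups did not overlap in 19.8%. For Bpifb6 every pup exposure library stood above every control library, on a total of 47 counts. The same held for 7.7% of all genes with a count. In such bulk samples fewer cells of a type, less RNA per cell and a smaller share precipitated cannot be told apart. None of the 6 libraries is of unprecipitated RNA.

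All 8 genes lie on the plus strand of chromosome 2 on the GRCm38 build, in a cluster of 13 protein-coding Bpif genes that spans 445.6 kb (GENCODE M21, chr2:153875045-154320646). Bpifa1 sits between Bpifa3 and Bpifa5, each of which had 0 counts in all 6 libraries. A count of 0 among 91920418 counts allows up to 0.0326 CPM (without TMM scaling), taking 3 counts over all libraries as the limit and covering counting error only. Bpifa6 and Bpifb2, elsewhere in the cluster, were also at 0. Bpifa1 and Bpifa5 had 597 identical bases in the alignment of their coding sequences, 71.6% of the 834 bases of Bpifa1. The next highest share of the longer coding sequence, with Bpifa3, was 51.4%, in alignments that allow many gaps. No word of 50 bases in the longest transcript of Bpifa1 occurred in a transcript of another gene.

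The 250 bases before the annotated start of Bpifa1 are printed beside those of Bpifa5, because these neighbours are alike in sequence and opposite in counts (RefSeq, GRCm38.p6). In capitals are matches, searched on both strands, to the core promoter element TATAAA, the AP-1 motif TGANTCA, the C/EBP motif TTGCNNAA and the E-box motif CAGCTG, and no match overlaps another.
Bpifa1, chr2:154142630-154142879, plus strand: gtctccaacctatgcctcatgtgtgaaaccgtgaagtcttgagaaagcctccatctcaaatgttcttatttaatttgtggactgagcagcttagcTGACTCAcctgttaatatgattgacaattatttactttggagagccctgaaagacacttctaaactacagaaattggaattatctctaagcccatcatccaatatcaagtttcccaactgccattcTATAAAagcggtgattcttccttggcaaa
Bpifa5, chr2:154162357-154162606, plus strand: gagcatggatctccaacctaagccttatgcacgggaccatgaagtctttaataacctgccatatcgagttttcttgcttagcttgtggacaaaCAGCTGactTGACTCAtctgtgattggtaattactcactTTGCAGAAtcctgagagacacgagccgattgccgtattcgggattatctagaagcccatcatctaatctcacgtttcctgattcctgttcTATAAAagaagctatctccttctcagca
The windows were identical at 173 of 250 bases (69.2%). Both held TATAAA within 30 bases of the start and TGACTCA, at -155 in Bpifa1 and at -148 in Bpifa5. Among 32851 RefSeq promoter windows of this length, TATAAA stood in 12.4%, TGANTCA in 6.75%, TTGCNNAA in 9.56% and CAGCTG in 13.0%. Of the 9 windows of the 8 members (Bpifb3 has 2 annotated starts), TATAAA stood in 3, those of Bpifa1, Bpifb9a and Bpifb9b, and TGANTCA in 2, those of Bpifa1 and Bpifb3. TTGCNNAA stood in 1, that of Bpifb3, CAGCTG in none, and the Foxa motif TGTTTAC, found in 3.17% of all windows, in none. These are letter matches and not binding sites.

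**Figure D1:**
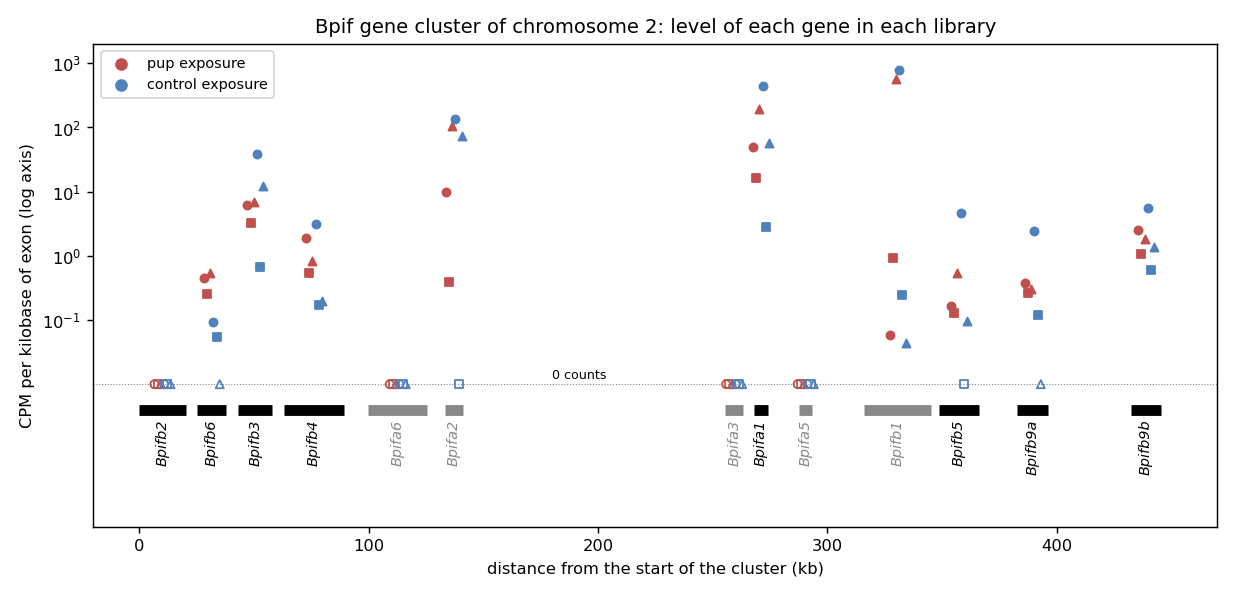
CPM per kilobase of exon (log axis) for each Bpif gene of the chromosome 2 cluster against distance from the start of the cluster in kb, with pup exposure in red and control exposure in blue (replicate 1 circle, 2 square, 3 triangle). Black bars are the 8 genes described, grey bars other Bpif genes, and open symbols on the dotted line mark 0 counts. Bpifa1 lies between 2 genes at 0, and in each gene with counts the first control library is the highest, except in Bpifb6.

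Levels between genes were compared as CPM per kilobase of annotated exon, where CPM is the count divided by the library total, times 1e6, with the total scaled by TMM. Bpifa1 averaged 126 CPM per kilobase over the 6 libraries (SD 167) and Bpifb3 11.3 (SD 13.8). Bpifb9b averaged 2.16 (SD 1.79), Bpifb4 1.12 (SD 1.15), Bpifb5 0.936 (SD 1.85), Bpifb9a 0.579 (SD 0.907) and Bpifb6 0.231 (SD 0.220). Bpifa1 stood above Bpifb3, Bpifb3 above Bpifb9b, and Bpifb9b above Bpifb4 in 6 of 6 libraries. Bpifb4 stood above Bpifb5 in 5 of 6 libraries, while Bpifb5 stood above Bpifb9a in only 3 of 6, so these low genes have no settled order. Bpifb9a stood above Bpifb6 in 3 of 6 libraries. The places of Bpifb9a and Bpifb9b also depend on how reads shared between them were counted, which is not given. Bpifa1 held 76.0%, 69.3% and 93.2% of the members' summed counts after pup exposure and 86.4%, 55.8% and 76.6% after control exposure.

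Bpifa1 (ENSMUSG00000027483) had 77.8, 25.6 and 298 CPM in the 3 pup exposure libraries, against 677, 4.30 and 87.4 CPM in the 3 control exposure libraries. Control libraries thus held both the highest and the lowest value, a 158-fold range, and the groups overlapped. The means were 134 ± 145 CPM after pup exposure and 256 ± 367 CPM after control exposure (SD, n = 3 each). By edgeR's quasi-likelihood test, adjusted over all genes tested, pup over control exposure gave a log2 fold change of -0.94 (SE 1.20, adjusted p = 0.780). Its sign turned when 1 library was left out: without control exposure replicate 1 the log2 fold change was 1.56 (SE 1.12, edgeR adjusted p = 0.707).

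**Figure D2:**
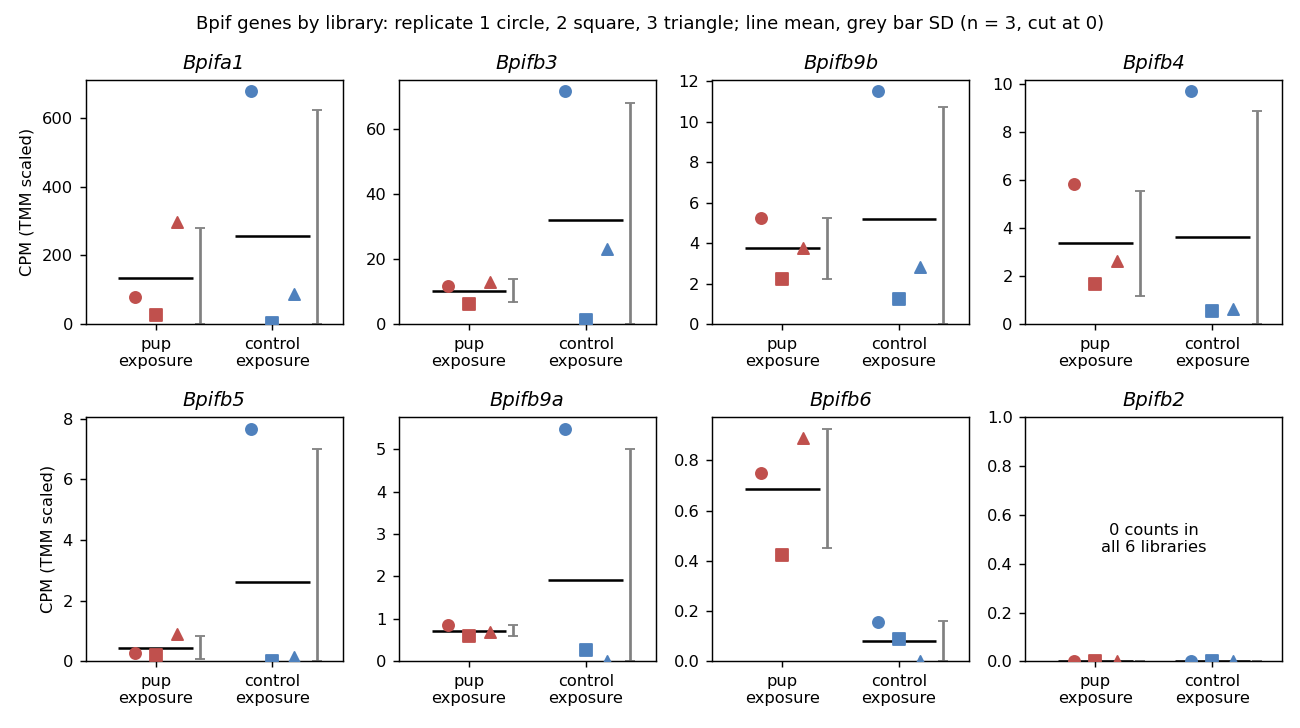
CPM of each of the 8 genes in every library, pup exposure on the left and control exposure on the right of each panel, in falling order of level per kilobase. Points are libraries, the black line is the mean and the grey bar the SD of 3 libraries, cut at 0. In 6 panels the first control library stands highest, and in the Bpifb6 panel all pup exposure libraries lie above the control libraries.

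Bpifb3, the gene called Rya3 after its discovery in rat olfactory mucosa, had the smallest unadjusted p of the members. It had 11.7, 6.19 and 12.9 CPM after pup exposure, against 71.7, 1.25 and 23.1 CPM after control exposure. The pup exposure libraries lay close together, inside the wide range of the control libraries. The log2 fold change was -1.65 (SE 0.90, edgeR unadjusted p = 0.0934, adjusted p = 0.513), and -0.22 without control exposure replicate 1. Leaving out control exposure replicate 2 made it -2.25 (SE 0.58, edgeR adjusted p = 0.646).

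Bpifb4, a longer BPI fold protein of the olfactory mucosa, had 5.83, 1.66 and 2.62 CPM after pup exposure, against 9.70, 0.537 and 0.624 CPM after control exposure. In 2 of the 3 control libraries it was below every pup exposure library, and in the first control library above them all. The log2 fold change was -0.13 (SE 1.02, edgeR adjusted p = 0.969), and 2.53 (SE 1.05, edgeR adjusted p = 0.673) without control exposure replicate 1.

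Bpifb9a and Bpifb9b are the mouse relatives of vomeromodulin, a glycoprotein secreted by nasal glands in the rat. Their coding sequences, 1773 bases each, were identical at 1760 bases (99.3%), with an identical run of 465 bases. Of the 50-base words in their longest transcripts, 71.4% of each gene's were shared with the other, so the division of counts between them is uncertain. If shared reads were left out of the counts, the levels of both are also understated, separately and summed. The 60 coding bases (82 to 141, counted from the start codon) in which they differ most are printed to show how little separates them. Capitals mark the 3 bases that differ, and a read that covers no differing base matches both genes.
Bpifb9a: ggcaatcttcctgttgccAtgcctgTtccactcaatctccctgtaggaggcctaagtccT
Bpifb9b: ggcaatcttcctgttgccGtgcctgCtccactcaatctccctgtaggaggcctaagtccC

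Bpifb9b had 5.25, 2.23 and 3.75 CPM after pup exposure, against 11.5, 1.25 and 2.81 CPM after control exposure. The control libraries again spanned the pup exposure libraries on both sides. The log2 fold change was -0.48 (SE 0.79, edgeR adjusted p = 0.835). Bpifb9a had 0.856, 0.601 and 0.691 CPM after pup exposure, against 5.48, 0.269 and 0 CPM after control exposure. It passed the filter on low counts through control exposure replicate 1 and pup exposure replicates 1 and 2, and its log2 fold change was -1.44 (SE 1.38, edgeR adjusted p = 0.697). With the counts of both genes added together the log2 fold change was -0.68 (SE 0.80, edgeR adjusted p = 0.758). Without control exposure replicate 1 it was 0.90 for Bpifb9b and 2.20 for Bpifb9a, with edgeR adjusted p of 0.770 and 0.727.

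Bpifb5 and Bpifb6 were counted too rarely to enter the test, which kept genes with the equivalent of 10 counts at the median library size in at least 3 libraries. Bpifb5 had 5, 6 and 18 counts after pup exposure, against 98, 0 and 1 after control exposure. A single library, the first control, thus held 83.4% of its summed CPM. Without a filter on low counts edgeR gave Bpifb5 a log2 fold change of -2.48 (SE 1.23, adjusted p = 0.484).

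Bpifb6, which in human cells sits on the endoplasmic reticulum and bears on protein secretion, had 14, 12 and 18 counts after pup exposure, against 2, 1 and 0 after control exposure. In CPM that is 0.749, 0.424 and 0.888 after pup exposure, against 0.157, 0.0895 and 0 after control exposure. The groups did not overlap. The ratio of pooled CPM, without TMM scaling, was 8.0, with a 95% exact conditional interval of 2.57 to 40.3 that covers counting error only. In edgeR without a filter the log2 fold change was 2.86 (SE 1.91, adjusted p = 0.639), so the difference did not pass with the spread between libraries taken into account. Over every gene with a count, 7.7% had all pup exposure libraries above all control libraries. Pup exposure libraries were also the deeper ones. Thinned to the smallest library, an alternative chosen after seeing the data, Bpifb6 kept 8, 8 and 10 counts after pup exposure, against 2, 1 and 0 after control exposure. Bpifb2, at the opening of the cluster, had 0 counts in all 6 libraries.

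Of the 5 members tested, 0 passed an adjusted p of 0.05 in edgeR, and over all 15498 genes tested 0 passed (0%). At an unadjusted p under 0.05 edgeR had 0 of 5 members, beside 11% of all genes tested (6.31% higher and 4.67% lower after pup exposure). DESeq2 called 0 of the members with an adjusted p, limma-voom called 0, and DESeq2 over all genes called 127 (1.03% of the 12301 with an adjusted p). DESeq2 had 1 member, Bpifb3, at an unadjusted p under 0.05, out of 6 with a p, beside 9.54% of all genes with one. Without the filter on low counts edgeR had 3 of 7 members at an unadjusted p under 0.05, beside 9.98% of all genes. They were Bpifb3 (SE 0.48, edgeR adjusted p = 0.0901), Bpifa1 (edgeR adjusted p = 0.488) and Bpifb5, all lower after pup exposure. Of these 7 members 0 passed the adjusted threshold in that fit, beside 0.502% of all genes. In that fit the SE of Bpifa1 was 0.45, where it was 1.20 with the filter. Without control exposure replicate 2, 2 of 7 members, Bpifb3 and Bpifb5, stood at an unadjusted p under 0.05 in edgeR, both lower after pup exposure (7.68% of all genes). Bpifb5 entered that fit through control exposure replicate 1 (98 counts) and pup exposure replicate 3 (18 counts), and Bpifb6 through its pup exposure libraries alone. Without control exposure replicate 1 the members under that p were 1 of 6, Bpifb4, higher after pup exposure (6.86% of all genes). Groups did not overlap in 0 of the 5 members tested and did not in 19.8% of all genes tested (10.1% with pup exposure higher and 9.6% with it lower). All 5 log2 fold changes were negative, with a median of -0.94 beside 0.03 over all genes tested. That direction rests on control exposure replicate 1. Without it the same genes stood at 1.56 (Bpifa1), -0.22 (Bpifb3), 2.53 (Bpifb4), 2.20 (Bpifb9a) and 0.90 (Bpifb9b). The median in that fit was 1.88, but over 6 members and so a different set. Bpifb6 (3.53) joined it, having passed the filter on low counts through its pup exposure libraries alone. With limma-voom 3 of the 5 were positive, Bpifa1 at 0.41 among them.

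**Figure D3:**
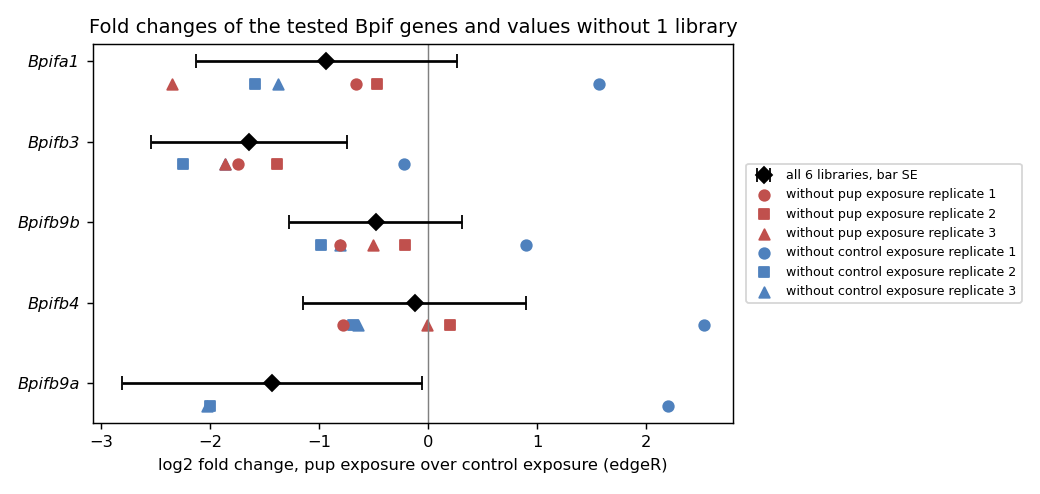
Log2 fold change of pup exposure over control exposure for the 5 tested genes from edgeR, with the SE as a bar, and below each the values with 1 library left out (no symbol where the gene then failed the filter on low counts). For every gene the blue circle, without control exposure replicate 1, lies farthest to the right, from -0.22 for Bpifb3 to 2.53 for Bpifb4.

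The variation within groups was large for these genes. The SD of log2 CPM within groups, pooled over both, was 2.87 for Bpifa1, 2.12 for Bpifb3, 2.00 for Bpifb9a, 1.68 for Bpifb4 and 1.18 for Bpifb9b, with a median of 0.63 over all genes tested. Bpifa1 exceeded 99.8% of all genes tested in this measure, and Bpifb9b, the lowest of the 5, exceeded 84.0%. Across the 6 libraries the log2 CPM of Bpifa1 and Bpifb3 had a Pearson r of 0.93, Bpifb4 and Bpifb9b one of 0.91, and Bpifb3 and Bpifb9a the lowest, 0.46. These describe 6 libraries that share their scaling, and control exposure replicate 1 is the highest point of all 5 genes.

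Among the other genes of the superfamily, the neighbours Bpifa2 and Bpifb1 also varied widely. Bpifa2, the parotid secretory protein, had 20.2, 0.778 and 210 CPM after pup exposure, against 277, 0 and 146 CPM after control exposure. It placed the 6 libraries in the same order as Bpifa1 (r = 0.94). Bpifb1, also called LPLUNC1, a protein of goblet cells and mucous glands, had 0.214, 3.32 and 2089 CPM after pup exposure, against 2845, 0.895 and 0.156 CPM after control exposure. It was thus high in just 1 library of each exposure, control replicate 1 and pup replicate 3. Those are the 2 libraries with the most Bpifa1, but Bpifa1 stayed at 87.4 CPM in control replicate 3, where Bpifb1 was nearly absent. Pltp and Lbp lay within narrow ranges, 16.8 to 23.6 CPM after pup exposure and 15.9 to 42.6 CPM after control exposure for Pltp, and 63.9 to 115 CPM after pup exposure and 74.9 to 110 CPM after control exposure for Lbp. Of 9 such relatives 4 had no count, Bpi among them, 4 were tested and 0 passed in either direction, with a median log2 fold change of -0.53.

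Among genes of lipopolysaccharide recognition, of 9 listed 8 were tested and 0 passed, with a median log2 fold change of -0.04. Cd14, the co-receptor that takes lipopolysaccharide from Lbp, averaged 85.3 ± 18.4 CPM after pup exposure and 88.0 ± 25.5 CPM after control exposure (SD, n = 3 each). Tlr4, the signalling receptor, averaged 6.76 ± 5.33 CPM after pup exposure and 3.86 ± 1.81 CPM after control exposure (SD, n = 3 each; log2 fold change 0.82, SE 0.75, edgeR adjusted p = 0.679).

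The name given to the set places these genes in nasal glands, and gland transcripts were plentiful. The 9 nasal lipocalins in the table, secreted carriers of small odorants, summed to 140100 to 429000 CPM after pup exposure and 245400 to 855900 CPM after control exposure. These values carry the TMM factors, and as a share of raw counts the lipocalins held 19.4% to 41.6% after pup exposure and 27.9% to 51.8% after control exposure. Of the 9 tested, 1 stood at an unadjusted p under 0.05 in edgeR, beside 11% of all genes tested. It was Obp1a, with a log2 fold change of 2.23 (edgeR adjusted p = 0.453). Bpifa1 did not follow the most abundant of them: its r with Obp2a, which was highest in control replicate 3, was 0.12. Over the 9 lipocalins r with Bpifa1 ran from 0.055 to 0.82 with a median of 0.49, and 1 exceeded 0.8. With Dmbt1, a mucosal scavenger protein of glands, r was -0.42. Over 18 tested gland genes r with Bpifa1 ran from -0.57 to 0.85 with a median of 0.24, and 1 exceeded 0.8. The mucins of that list did not go together, with r of 0.85 for Muc5ac, 0.79 for Muc5b and 0.02 for Muc2. Of these 18 gland genes 1 stood at an unadjusted p under 0.05 in edgeR, beside 11% of all genes tested, and 0 passed the adjusted threshold. It was the chemokine Ccl28, which was higher after pup exposure (log2 fold change 1.36, SE 0.50). The whole gland list summed to 83270 to 116000 CPM after pup exposure and 83270 to 173000 CPM after control exposure.

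The rule for genes of like pattern took the 5 highest r with each tested member among 8344 genes averaging at least 10 CPM. Each r rests on 6 libraries, and the highest of so many can be large by chance, which was not tested. The names are therefore a description and do not show shared regulation or a shared cell type. For Bpifa1 they were Spats2l (r = 0.99), Sec14l3 (0.98), Tmx1 (0.97), Trmt10a (0.97) and Stx4a (0.96). The summed level of the members, which is mostly Bpifa1, gave the same 5 names. Sec14l3, a lipid-binding protein of airway and olfactory epithelium, stood in the sustentacular list. It had 18.1, 11.5 and 29.4 CPM after pup exposure, against 76.9, 2.95 and 16.1 CPM after control exposure, while Spats2l ran from 22.8 to 30.0 CPM after pup exposure and from 17.8 to 34.3 CPM after control exposure. Sec14l3 was also among the 5 for Bpifb3 (r = 0.95). For Bpifb9b the 5 included Stoml3, a membrane protein of olfactory neurons, with 9.58, 5.48 and 4.99 CPM after pup exposure, against 49.2, 0.448 and 3.43 CPM after control exposure. For Bpifb4 the highest was Etfdh (r = 0.97) and for Bpifb9a the receptor Vmn2r69 (r = 0.99).

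**Figure D4:**
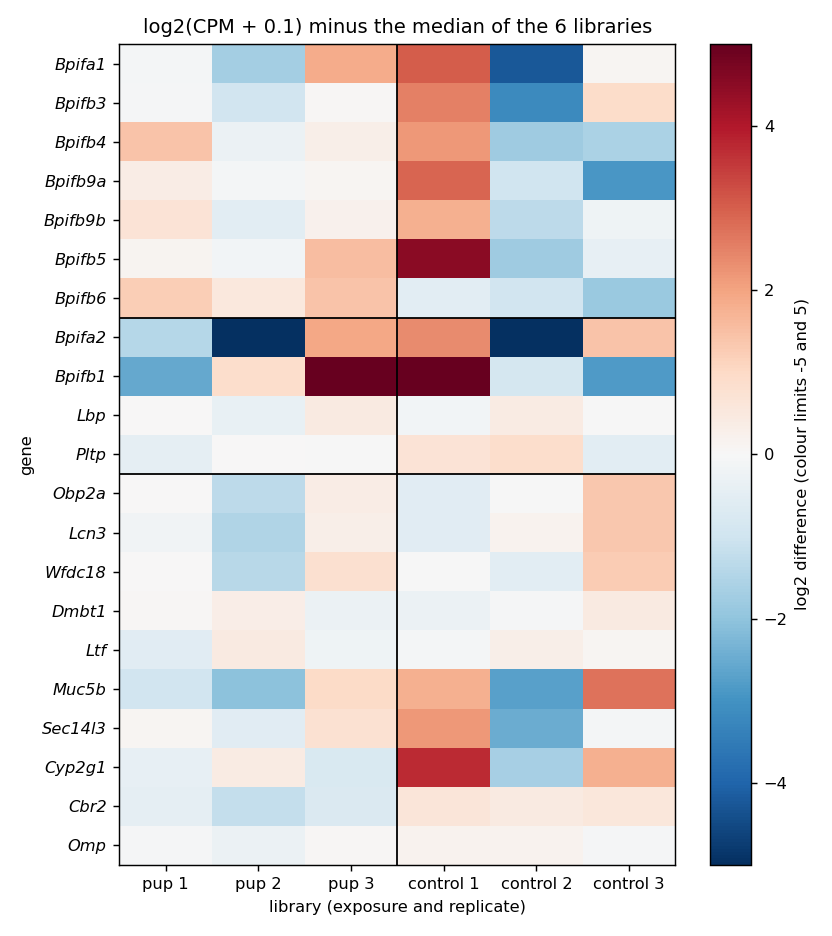
Each row is a gene and each column a library, pup exposure left of control exposure, coloured by log2(CPM + 0.1) minus the median of that gene's 6 libraries, with the colour scale limited at both ends. The 7 detected Bpif genes described are above the first line, other members of the superfamily between the lines, and gland, supporting cell and neuron genes below. Control 1 is the darkest red in 6 of the 7 top rows, Bpifb1 is red in pup 3 and control 1, and Obp2a and Lcn3 are reddest in control 3.

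Library totals were 18199476 to 20871266 counts after pup exposure and 10590716 to 11240065 after control exposure, with TMM factors of 0.605 to 1.39. Marker levels also differed between libraries, and their part in the Bpif values was not tested. Cnga2, an olfactory neuron channel, had 1.34, 2.30 and 0.346 CPM after pup exposure, against 7.04, 0 and 0 CPM after control exposure, so it too was highest in control replicate 1. Of the other olfactory neuron markers Cnga4 was also highest there, while Gnal, Cngb1, Adcy3 and Ano2 were highest in a pup exposure library. Olfactory neuron markers (6 of 6 in the table) summed to 63.0 to 103 CPM after pup exposure and 44.6 to 74.4 CPM after control exposure. Their sum was highest in pup exposure replicate 2, where the largest parts were Ano2 (48.6 CPM) and Cngb1 (24.6 CPM). In control exposure replicate 1 the largest part was Cnga4 (30.4 CPM). The sum therefore mainly follows its most abundant genes and gives Cnga2 little weight. Which library held the most olfactory tissue was not tested. Sustentacular markers (6 of 7 in the table) summed to 1556 to 2290 CPM after pup exposure and 3847 to 4543 CPM after control exposure, without overlap. As a share of raw counts, without TMM, they nearly met, at 0.186% to 0.235% after pup exposure and 0.239% to 0.517% after control exposure. Respiratory epithelium markers (8 of 8 in the table) summed to 2115 to 4915 CPM after pup exposure and 3557 to 11660 CPM after control exposure. The largest part in every library was a single gene, Reg3g, at 1190 to 4087 CPM after pup exposure and 1716 to 10240 CPM after control exposure. This sum therefore mainly follows Reg3g and not the list as a whole. The club cell marker Scgb1a1 was at 0 in 2 libraries of each exposure. Omp, of the vomeronasal neuron list, marks mature olfactory neurons as well and so does not measure vomeronasal neurons alone. It was present in every library, at 663 to 830 CPM after pup exposure and 767 to 920 CPM after control exposure. At an unadjusted p under 0.05 in edgeR stood 2 of 6 sustentacular genes tested, Cbr2 and Cyp2g1, and 2 of 7 respiratory genes, Tppp3 and Cyp2f2. All were lower after pup exposure. So did 2 of 6 olfactory neuron genes, Ano2 and Cngb1, both higher, and none of the 7 vomeronasal neuron genes tested. Over all genes tested 4.67% stood under that p as lower and 6.31% as higher. In none of these lists did a gene pass the adjusted threshold. The median log2 fold change was -0.69 for the sustentacular, -0.79 for the respiratory, 0.36 for the olfactory neuron and 0.36 for the vomeronasal neuron list, beside -0.58 for the lipocalins and -0.21 for the gland genes.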

How the data were processed

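The authors deposited raw counts, whole numbers for each Ensembl ID in each library. Per the labels' protocols, lysates were precipitated with an antibody to phosphorylated S6 and cDNA was made with a low-input kit. Per the submitters' processing notes the build was GRCm38. Not given in the sources used here: aligner, counting tool, use of strand and treatment of shared reads. GENCODE M21 named 36639 of 38561 IDs.

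edgeR 4.0.16 in R 4.3.3 ran the quasi-likelihood test on the deposited counts of all genes. Settings were filterByExpr, minimum count 10, minimum total 15, TMM, Benjamini-Hochberg threshold 0.05 and group as the only term. The code was tested on simulated data with a smaller spread between replicates than here, where the common coefficient of variation was 0.535. Its power at the spread of these data was not tested. Standard errors came from the F statistic. Log2 CPM for correlations used a prior count of 2. No pair of replicates looked like a single library deposited again (chi-square over degrees of freedom 86.2 to 300). Alternatives were limma-voom (limma 3.58.1), plain or with sample quality weights, DESeq2 1.42.0, scaling by RLE, by upper quartile or by totals alone, the filter dropped or raised to 50 counts with 1 CPM in 3 libraries, a replicate block, each library left out, Bpifb9a and Bpifb9b summed, and thinning to 10590716 counts, the last added after seeing the data. Identities came from global alignment of the coding parts of the longest transcripts. The members and gene lists were chosen with earlier results of these data known. The genes named are the 8 members, the 5 genes most like each tested member, and up to 4 genes of each list by smallest p with Obp2a. Chosen after their values were seen were Bpifa3, Bpifa5, Bpifa6 and Bpi (at 0 counts), Cd14, Dmbt1, Wfdc18 and Ltf (in the heat map), Muc5ac, Muc2, Cnga2, Gnal, Reg3g, Scgb1a1 and Omp.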

Additional observations from a re-analysis of the deposited data

How the results depend on the processing

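In none of the 17 alternatives did a member pass an adjusted p of 0.05. Of 79 fold changes of the 5 tested members under these alternatives, 62 kept their sign and 17 turned positive. Beside libraries left out, the turns came from limma-voom (log2 fold change 0.41 for Bpifa1, 0.52 for Bpifb4, 0.026 for Bpifb9a), from limma-voom with sample quality weights (2.95 for Bpifa1, 1.36 for Bpifb3, 1.34 for Bpifb4, 0.80 for Bpifb9a, 0.62 for Bpifb9b) and from the replicate block (0.74 for Bpifa1, 0.91 for Bpifb4, 0.43 for Bpifb9a, 0.021 for Bpifb9b), and the cause was not tested. With single libraries left out the log2 fold change ran from -2.35 to 1.56 for Bpifa1, -2.25 to -0.22 for Bpifb3, -0.78 to 2.53 for Bpifb4, -2.03 to 2.20 for Bpifb9a (3 fits) and -0.99 to 0.90 for Bpifb9b. The members' median, over the 4 to 7 members that each such fit tested, ran from -1.59 to 1.88. In the fits without a control library these members included Bpifb6, which passed the filter through its pup exposure libraries alone. The 1.88, without control exposure replicate 1, includes its log2 fold change of 3.53. The members' median was 1.34 with sample quality weights and 0.43 with the replicate block. Over all genes, 0 passed in edgeR with any single library left out, while 120 passed without a filter, 127 in DESeq2, 8 in limma-voom and 12 with sample quality weights. The pairing by replicate number was checked: deviations of same-numbered libraries had r of -0.035, 0.179 and 0.075. Pairs of unlike number ran from -0.256 to 0.139. With 3 libraries in each group this check cannot exclude a batch shared by number. With the block 0 genes passed. DESeq2 gave Bpifb9a no adjusted p. Bpifb9a failed the filter and has no value under the stricter filter, after thinning or without any 1 pup exposure library. Depth limits Bpifb5, Bpifb6 and Bpifb9a, which had 128, 47 and 120 counts in all, and 3 counts correspond to 0.144 to 0.283 CPM, without TMM scaling, in a library.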
